A study of Cicer arietinum with 32 samples.

Results

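Germinating seedlings were compared with seeds harvested 30 days after pollination (30DAP), the latest seed stage of a chickpea expression atlas of 32 tissues/organs. Of the 38818 assembled transcripts, 24807 (63.9%) had an FPKM value (fragments scaled to transcript length and to the total of the library) of at least 0.5 in the germinating seedling, in the 30DAP seed or in both, and these are the members described here. The smallest deciding value among them was 0.5 and the largest among the transcripts left out was 0.497. A total of 292 members had their higher value between 0.5 and 0.55, and 323 transcripts just missed the threshold with a higher value of 0.45 or more.

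In a legume seed that fills and dries, storage globulins of the cupin fold, oil body proteins such as oleosins and steroleosins, late embryogenesis abundant (LEA) proteins and small heat shock proteins accumulate while growth stops. After germination these reserves are broken down, ribosomes are made in large numbers, cells divide and extend, root hairs form and the shoot builds its photosynthetic apparatus. Gibberellins promote germination and elongation, and abscisic acid promotes maturation and dormancy.

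All samples came from the genotype ICC4958, with no treatment and no altered gene. The germinating seedlings were whole 5-day-old seedlings grown on moist filter paper in Petri dishes, so roots, shoots and any remaining cotyledon tissue were measured together. The 30DAP seeds were whole seeds, with embryo, coat and what remained of the endosperm. The deposited value of each transcript was 1 average per tissue, over 3 biological replicates for the germinating seedling and 2 for the 30DAP seed. The spread between replicates is therefore not known here, no difference below has an error or a p-value, and each is a difference between averages. In whole organs, fewer cells of a type cannot be told apart from less RNA per cell.

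Differences were calculated as log2(FPKM + 1) in the germinating seedling minus log2(FPKM + 1) in the 30DAP seed, which understates the change of transcripts with low values. A transcript was called higher in a tissue where this difference reached 2 in size. The median difference of the members was 1.16, with 5% of them below −1.01 and 5% above 3.75. In the germinating seedling 6227 transcripts (25.1% of members) were called higher, and in the 30DAP seed 618 (2.49%) were. Among the 6227, 587 were listed at 0 in the 30DAP seed, and among the 618, 96 were listed at 0 in the germinating seedling. Another 3875 members (15.6%) differed by less than 0.5. A value of at least 0.5 FPKM was reached in both tissues by 17033 members, in the germinating seedling only by 6985 (28.2%) and in the 30DAP seed only by 789 (3.18%). The balance between directions turned at the extremes. A difference of 6 or more was seen for 190 transcripts towards the seedling and 137 towards the seed, but a difference of 10 or more for 7 and 41, respectively.

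**Figure D1:**
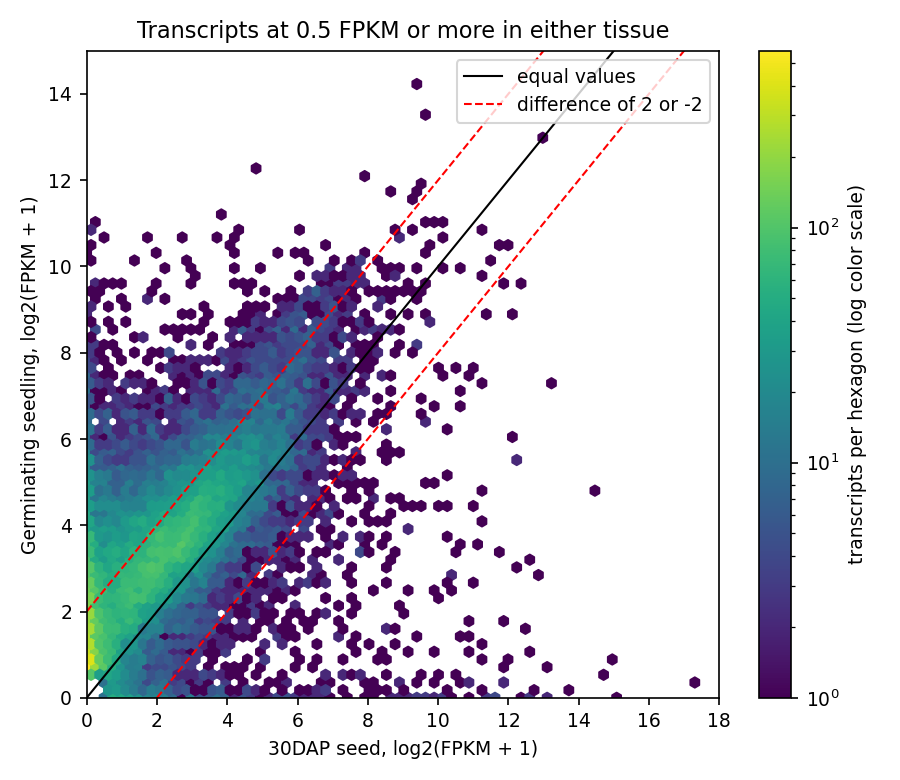
The 24807 members, with log2(FPKM + 1) in the 30DAP seed on the x axis and in the germinating seedling on the y axis. Colour gives the number of transcripts per hexagon on a log scale. A black line marks equal values, and red dashed lines mark differences of 2 and −2. Most members lie above the line of equal values, and the hexagons below it at the far right hold the transcripts with the highest values in the seed.

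This asymmetry went together with how unevenly the 30DAP values were distributed. In the 30DAP seed 1 transcript held 18.8% of the summed FPKM, the 10 highest held 38.4%, and 28 transcripts held 50%. In the germinating seedling the highest transcript held 2.42%, the 10 highest 8.21%, and 753 transcripts were needed to reach 50%. A value of at least 1000 FPKM was found for 95 transcripts in the 30DAP seed and 59 in the germinating seedling. Since FPKM is relative to the total of a library, very abundant transcripts take up part of that total, and how much of the asymmetry this accounts for was not tested. Over the 14897 transcripts with at least 1 FPKM in both tissues, the median ratio was 2.34-fold (1.23 on the log2 scale) towards the seedling. For median ratio scaling, the 30DAP values were multiplied by this ratio before 1 was added, and the seedling values were left as deposited. On that scale 3598 members (14.5%) were called higher in the germinating seedling and 1305 (5.26%) in the 30DAP seed. The seedling's share of calls went from 91.0% to 73.4%, and the median difference of the members went to 0.45. Quantile normalization, which gives both tissues the same distribution, moved it to −0.13, with 2208 members (8.9%) called higher in the germinating seedling and 1453 (5.86%) in the 30DAP seed. The deposited values do not show which scale reflects RNA per cell. Values below are on the deposited scale unless another is named. The shares of 25.1% and 2.49%, or 14.5% and 5.26% after median ratio scaling, are those against which the counts of each group are read. The annotation used here named 7.06% of the members. The 17 groups described below were drawn from it, and most of their transcripts lie on chromosome 1. Each group is therefore only a part of its gene family or process in chickpea. Some genes entered a group as overlapping transcripts, so the counts are of transcripts and not of genes.

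**Figure D2:**
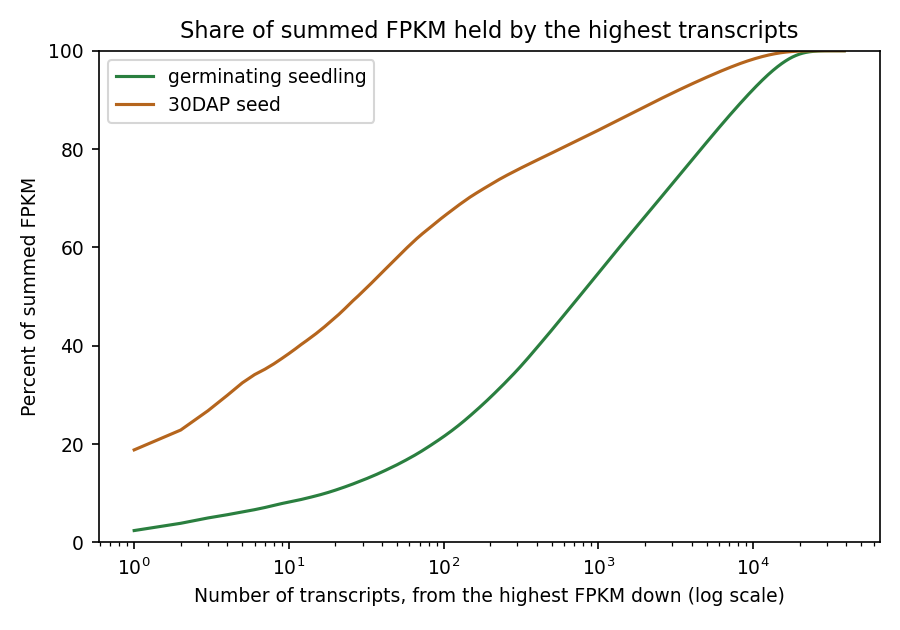
Percent of the summed FPKM (y axis, 0 to 100) held by the highest transcripts of each tissue, with the number of transcripts on a log x axis. The 30DAP curve starts at 18.8% for a single transcript and passes 50% at 28 transcripts, while the germinating seedling curve starts at 2.42% and passes 50% at 753.

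Both labels were checked against marker transcripts. LHCB6 (Ca_TC00156), a minor antenna protein of photosystem II, stood at 333 FPKM in the germinating seedling and 68.0 in the 30DAP seed. PSAF (Ca_TC00866), the plastocyanin-docking subunit of photosystem I, stood at 484 and 53.7, so green-tissue transcripts were higher in the seedling and well above the threshold in the seed. RHS14 (Ca_TC00743), a marker of root hairs, was low in the whole seedling at 0.863 FPKM, against 1025 in isolated root hair, and was listed at 0 in the seed. The homeobox gene GL2, which patterns the epidermis, had 2.45 FPKM in the seedling and 0.33 in the seed. The steroleosins, given below, marked the 30DAP seed. Cupins were also higher there. However, Ca_TC26610 and Ca_TC32070 are among the 12 annotated transcripts with the largest difference towards the seed, so they do not check the label independently. The LEA transcripts of the seed maturation and storage list did not mark the seed. None was called higher there, and only Ca_TC00114 had a higher value in the seed (difference −0.21). The seed marker ATS3 (embryo-specific protein 3) did not mark it either. None of its 9 annotated transcripts reached the threshold in either tissue, with at most 0.075 FPKM in the 30DAP seed and 0 in the seedling, and all 9 had their highest value in nodule, up to 719 FPKM. BAN, anthocyanidin reductase of the seed coat, was listed at 0 in the 30DAP seed and at 0.563 in the seedling.

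Several transcripts annotated as cupins, hydroxysteroid dehydrogenase 1 or a DUF1264 protein were among those with large differences towards the 30DAP seed. The cupin annotation names a wide superfamily, and whether these cupins are storage proteins was not tested. Cupin Ca_TC26610 had 0.283 FPKM in the germinating seedling and 3951 in the 30DAP seed (difference −11.59). A second cupin, Ca_TC32070, was listed at 0 in the seedling and at 3104 in the seed. The cupins Ca_TC37279 and Ca_TC33544 had 4.41 against 1294 FPKM (−7.90) and 2.19 against 362 (−6.83). Ca_TC32070 and Ca_TC33544 are among the transcripts that did not align to the kabuli genome, and whether these cupins shared reads with each other was not tested. Of all tissues with FPKM values outside this pair, embryo had the highest value of Ca_TC26610, Ca_TC32070 and Ca_TC37279, at 28.9, 41.6 and 24.5 FPKM, each far under the 30DAP value. The steroleosin-type hydroxysteroid dehydrogenase 1, an oil body protein in Arabidopsis, had 1.74 FPKM in the seedling and 1696 in the seed for Ca_TC18135 (−9.27), and 0.037 against 65.9 for Ca_TC18138 (−6.01). A DUF1264 protein (Ca_TC00522, chromosome 1, 3612880 to 3614651 of the kabuli genome) was listed at 0 in the seedling and at 2001 in the seed, and did not pass 0.657 FPKM in any of the 29 other tissues with FPKM values. In the 20DAP seed, for which only ranks could be used, Ca_TC32070, Ca_TC26610 and Ca_TC00522 were ranked 14, 15 and 61 of all transcripts.

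The group list of seed maturation and storage as a whole was not uniform. Of its 23 listed transcripts 12 were members, of which 5 were higher in the 30DAP seed, 3 in the germinating seedling and 4 in neither, and its median of 0.49 became −0.66 under median ratio scaling and −0.76 under quantile normalization. The 5 were cupins Ca_TC26610 and Ca_TC37279, both steroleosins and the DUF1264 protein. Like the cupins, the 3 that were higher in the seedling carried names of wide families. They were lipid-transfer/2S albumin superfamily proteins Ca_TC00834 (82.8 FPKM in the seedling, 0.025 in the seed) and Ca_TC00154 (69.6 and 15.7), and an LEA hydroxyproline-rich glycoprotein, Ca_TC00274 (11.0 and 0.60 FPKM), whose family is not that of the classic LEA proteins. Ca_TC01238, annotated as group 2 LEA, had 52.8 FPKM in the seedling and 22.7 in the seed, a difference of 1.18 that vanished to −0.01 under median ratio scaling.

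Some enzymes differed as much. Beta-amylase 6 (Ca_TC37169), which releases maltose from starch, had 3130 FPKM in the 30DAP seed, 0.013 in the germinating seedling and at most 0.027 in any of the 29 other tissues with FPKM values. In the 20DAP seed, which is not among the 29, it was listed above 0. Other beta-amylases differed less. Ca_TC00622 and Ca_TC00623, both beta-amylase 3, had 55.7 and 24.7 FPKM in the seedling against 17.1 and 5.73 in the seed, and beta-amylase 1 (Ca_TC35405) had 0.157 and 3.00. A transcript for rhamnose biosynthesis 1 (Ca_TC34757), which makes UDP-rhamnose for cell wall pectin and flavonoid glycosides in Arabidopsis, had 1103 FPKM in the seed, was listed at 0 in the seedling reached 0.587 in embryo and was ranked 33 in the 20DAP seed. A cystathionine beta-synthase domain protein (Ca_TC01143, chromosome 1, 9093768 to 9095687) had 968 FPKM in the seed and 0.24 in the seedling (−9.61). It had 9.31 in embryo and was ranked 643 in the 20DAP seed.

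Lipoxygenases, which oxygenate polyunsaturated fatty acids, divided between the tissues. Of 17 transcripts with this annotation 11 were members, with 4 higher in the 30DAP seed and 2 in the germinating seedling, and 5 and 2 after median ratio scaling. Ca_TC33093 had 0.02 FPKM in the seedling and 871 in the seed (−9.74), and its next highest tissue was embryo with 2.18. Ca_TC33860 was listed at 0 and 28.3, and Ca_TC34000 at 0 and 6.82. In the other direction, Ca_TC33398 had 192 FPKM in the seedling and 0.015 in the seed (7.57), and Ca_TC35179 had 20.4 and 0.89 (3.50). All 5 carry the same name, lipoxygenase 1, and are among the transcripts that did not align to the kabuli genome, so near-identical copies may have shared reads.

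Chaperones showed opposite single transcripts rather than a common shift. An HSP20-like small heat shock protein (Ca_TC19431), of the class that accumulates in maturing seeds, had 20.5 FPKM in the germinating seedling and 2094 in the 30DAP seed (−6.60), with 824 in isolated seed coat. A DnaJ co-chaperone (Ca_TC00414) had 13.5 and 70.5 (−2.30), whereas another, Ca_TC19205, had 460 in the seedling and 10.8 in the seed (5.28), and reached 6280 in root hair. Of the 8 members in the list, 1 was higher in the seedling and 2 in the seed, and the median of 0.66 turned to −0.50 under median ratio scaling.

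A further set with high 30DAP values shared its pattern with nodule. A phosphoribosyltransferase family transcript (Ca_TC35359) had 8611 FPKM in the 30DAP seed and 13861 in nodule, and was listed at 0 in the germinating seedling. The aquaporin PIP2 transcript Ca_TC32055 had 5121 FPKM in the seed and 10636 in nodule, and PDR12 transcript Ca_TC32126, an ABC transporter, had 2798 and 10100, with both listed at 0 in the seedling and in the 20DAP seed. Outside seed and nodule, Ca_TC32055 reached 1.74 and Ca_TC32126 0.467 FPKM. Glycine decarboxylase P-protein 1 (Ca_TC31895) and FTSH protease 7 (Ca_TC31925) had 1266 and 730 FPKM in the seed, were listed at 0 in the seedling, and also had nodule as their next tissue, with 37.0 and 19.0 FPKM. None of these 5 transcripts aligned to the kabuli genome. Among 1998 transcripts listed as not aligned, 624 were members and 49 (7.85%) were higher in the 30DAP seed. In 33 of these 49 nodule had the highest value outside the compared pair, and 30 were listed at 0 in the 20DAP seed. Among the 569 other transcripts higher in the 30DAP seed, which may still include unaligned ones, the numbers were 9 and 12. The origin of the unaligned transcripts was not tested, and the 1998 listed held 3.16% of the summed FPKM in the 30DAP seed and 1.03% in the germinating seedling.

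The transcripts with the highest 30DAP values carried no annotation in the tables used here. Ca_TC02019 had 161915 FPKM in the 30DAP seed and 0.197 in the germinating seedling (−17.05), and its next highest tissue was embryo with 180. It was ranked 8 of all transcripts in the 20DAP seed. Ca_TC29921 had 34756 FPKM in the seed and 0.05 in the seedling (−15.01), and none of the 29 other tissues with FPKM values passed 2.22. In the 20DAP seed it was ranked 258.

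**Figure D3:**
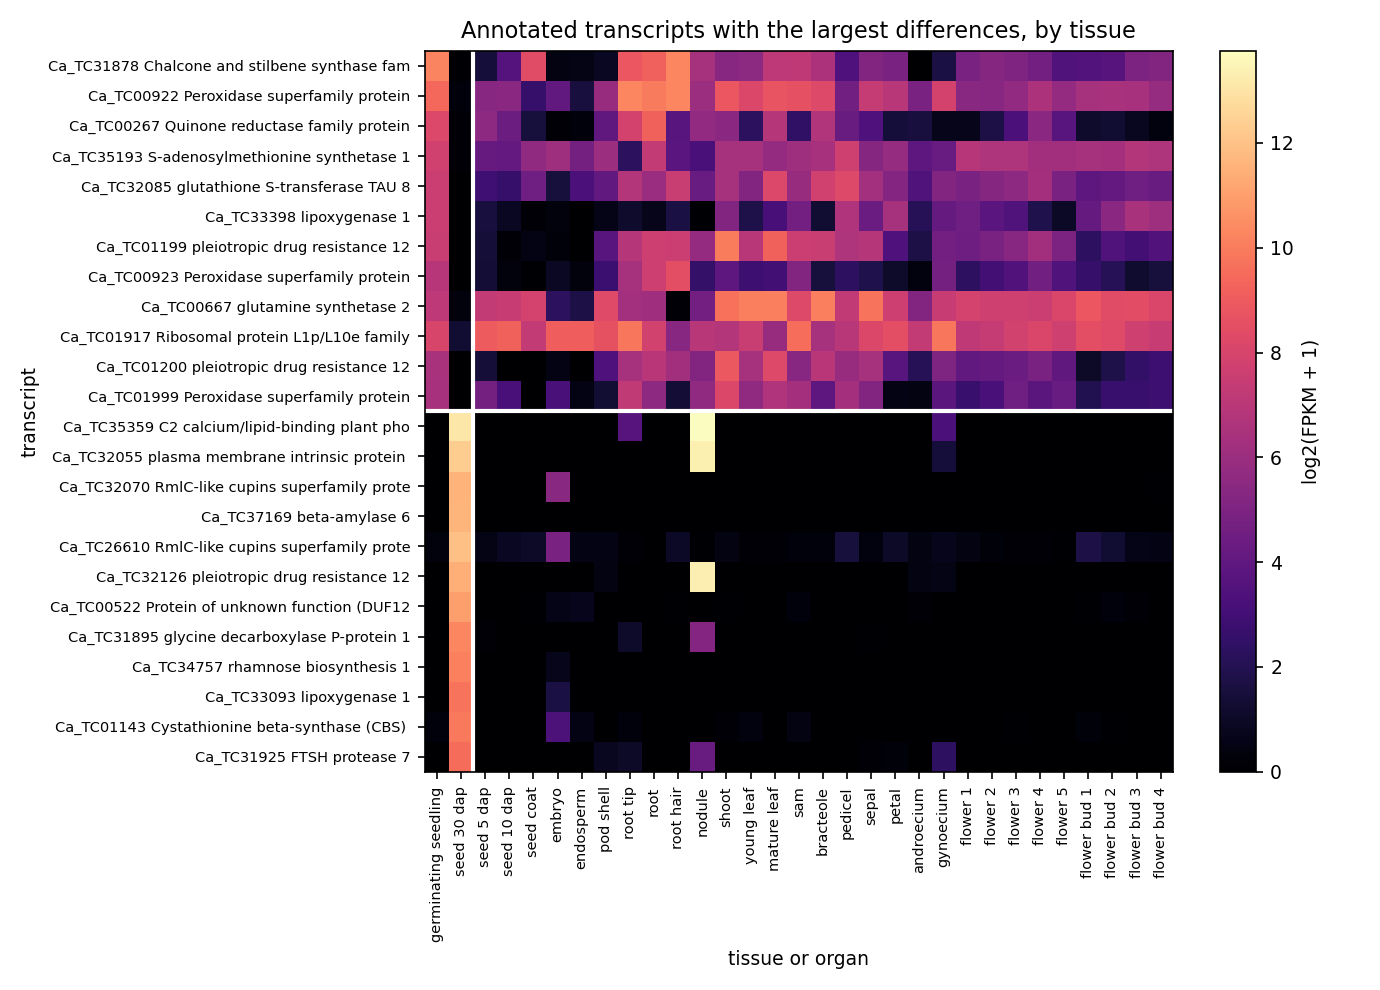
log2(FPKM + 1), as colour, of the 12 annotated transcripts with the largest difference in each direction (rows) in the 31 tissues with FPKM values (columns, the compared pair first). The upper 12 rows, higher in the germinating seedling, have high values in many other tissues, and the lower 12, higher in the 30DAP seed, are near 0 almost everywhere else, except in embryo for the cupins and in nodule for several transcripts that did not align to the genome.

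Peroxidases had the highest median of the 17 groups, although the list holds only part of the family. Class III peroxidases are secreted enzymes that act on the cell wall and on hydrogen peroxide. Of 8 listed transcripts 7 were members and all 7 were called, with 5 higher in the seedling and 2 in the seed, a median of 3.52 and, after median ratio scaling, 2.80 with the same counts. Ca_TC00922 had 685 FPKM in the germinating seedling and 0.205 in the 30DAP seed (9.15), and reached 1259 in root tip. Its neighbours Ca_TC00923 and Ca_TC00925 had 120 and 55.2 FPKM in the seedling against 0 and 0.02 in the seed, and Ca_TC00926 had 5.98 and 0. These 4 lie within chromosome 1, 7256209 to 7292338, without overlap between Ca_TC00922 and Ca_TC00923. The fifth, Ca_TC00157, had 142 and 11.5 (3.52). The 2 peroxidases on the seed side, Ca_TC00137 (0.223 and 123 FPKM, −6.66) and Ca_TC00138 (0.933 and 149, −6.27), overlap by 1903 bp on chromosome 1, 875196 to 878810, and may share reads. A peroxidase outside the list, Ca_TC01999, had 84.4 FPKM in the seedling and 0.015 in the seed (6.40).

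The 12 annotated transcripts with the largest differences towards the germinating seedling held 3 peroxidases, a lipoxygenase, a glutamine synthetase and a ribosomal protein, which are described with their groups, and 6 others. A chalcone and stilbene synthase family transcript (Ca_TC31878), of the family that starts flavonoid synthesis, had 1209 FPKM in the seedling and 0.055 in the seed (10.16), and stood at 1263 in root hair and 573 in root. A quinone reductase (Ca_TC00267) had 291 and 0.155 (7.98). S-adenosylmethionine synthetase 1 (Ca_TC35193), which makes the methyl donor of many reactions, had 218 and 0.14. Glutathione S-transferase TAU 8 (Ca_TC32085) had 190 FPKM in the seedling and was listed at 0 in the seed. The PDR12 transcripts Ca_TC01199 (178 and 0.02 FPKM) and Ca_TC01200 (87.0 and 0 FPKM) share 7025 bp of chromosome 1, 9484202 to 9491754, and both were highest in the sample titled shoot, at 1052 and 467. A tissue field of that sample names root instead, and the title was followed. Outside these 12, 4-coumarate:CoA ligase 2 (4CL2, Ca_TC01072) of the cell wall list, which activates cinnamic acids for lignin and flavonoids, had 27.8 and 0.05 (4.78).

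Transcripts of the photosynthesis and plastid list were higher in the germinating seedling as a group, which did not hold for the light-harvesting and Rubisco keyword lists given below. Of 23 listed, 21 were members and all 21 had a positive difference, with 16 called higher in the seedling and 0 in the seed, against 25.1% and 2.49% of all members. The 16 are fewer than 16 genes. GS2, ATPC1, PSAF, CHLI1 and the alternative oxidase family gene IM were each called as a pair of overlapping transcripts that may share reads. The median was 2.80, against 1.16 for all members. After median ratio scaling 10 were called and the median was 1.94, against 0.45 for all members, and after quantile normalization 10 and 1.41. The largest differences belonged to glutamine synthetase 2 (GS2), the plastid enzyme that assimilates ammonium. Ca_TC00667 had 141 FPKM in the seedling and 0.265 in the seed (6.81), and Ca_TC00666, which lies inside it on chromosome 1, 4923157 to 4928406, had 48.1 and 0.08. The gamma subunit of the chloroplast ATP synthase (ATPC1) had 68.8 and 2.65 FPKM for Ca_TC00720 (4.26) and 81.7 and 7.80 for Ca_TC00719 (3.23), loci that overlap by 1628 bp. CLA1 (Ca_TC00633), the first enzyme of plastid isoprenoid synthesis, had 40.5 and 1.19 (4.24). The magnesium chelatase subunit CHLI1, for chlorophyll synthesis, had 82.3 and 17.4 for Ca_TC00441 (2.18, and 1.00 after median ratio scaling).

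The seedling levels of these transcripts were below those of green organs. LHCB6 and PSAF reached 1385 and 2047 FPKM in bracteole, and Ca_TC00667 1076 in young leaf. A keyword list of photosystem subunits, which includes both PSAF transcripts of the list above, had 9 members, with 6 (66.7%) higher in the seedling, 1 higher in the seed and a median of 2.29. After median ratio scaling 1 and 1 were called and the median was 1.23, and after quantile normalization 2 and 1. The 1 in the seed was photosystem II subunit O-2 (Ca_TC33173, 0.09 and 11.7 FPKM). Light-harvesting proteins found by keyword had 12 members, 2 (16.7%, against 25.1% of all members) higher in the seedling and 1 in the seed. After median ratio scaling 1 and 1 were called. The seed-side transcript, Ca_TC31981, had 60.2 FPKM there and 1600 in nodule and was among the unaligned. Rubisco transcripts had a lower median. Of 12 members 1 (8.33%, against 25.1% of all members) was higher in the seedling, a small chain transcript (Ca_TC33538, 41.4 and 0.745 FPKM, 4.60), and 0 in the seed. The median of 0.13 became −0.34 under median ratio scaling, with 1 and 2 called.

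**Figure D4:**
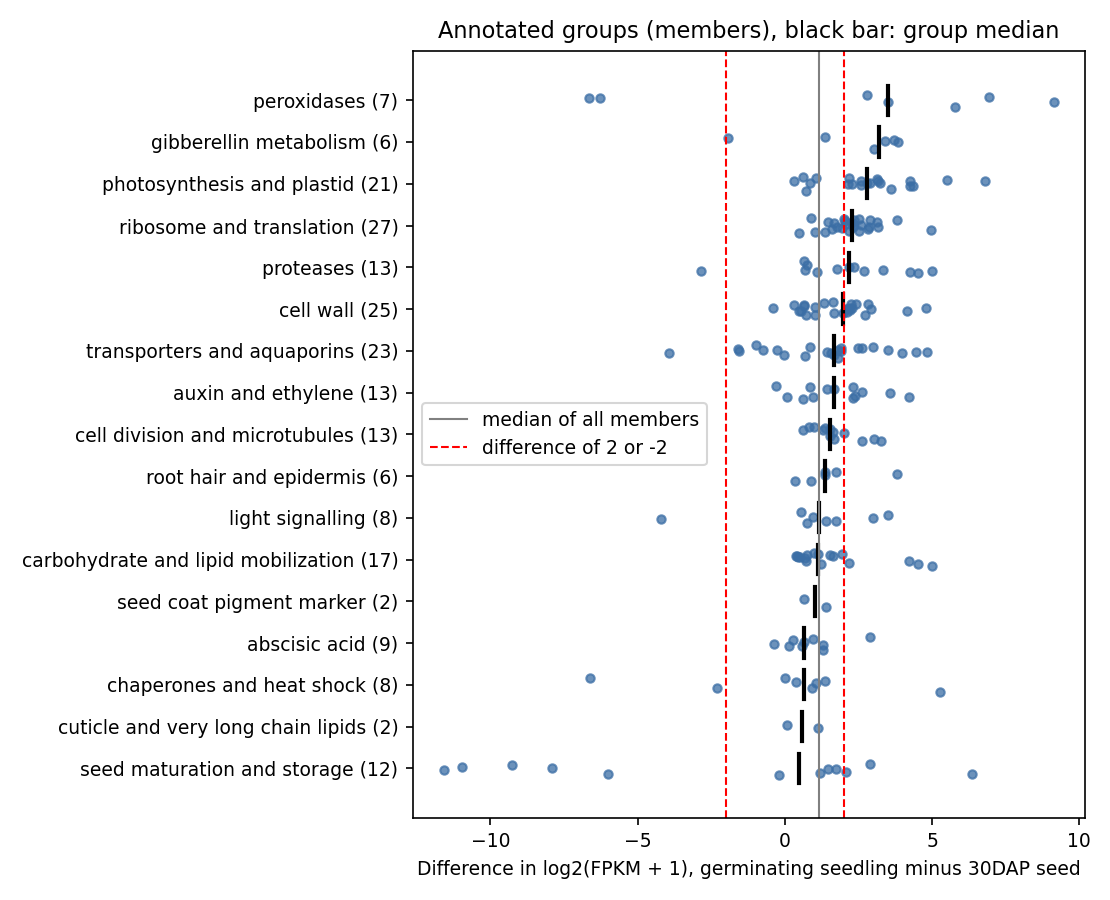
Difference in log2(FPKM + 1), germinating seedling minus 30DAP seed (x axis), of each member (points) of the 17 annotated groups (y axis, members in brackets), with the group median as a black bar, the median of all members (1.16) as a grey line and differences of 2 and −2 as dashed lines. Peroxidases, gibberellin metabolism and photosynthesis have medians of 3.52, 3.21 and 2.80, and seed maturation and storage spans the widest range, with a median of 0.49.

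Most ribosomal transcripts had higher values in the germinating seedling on the deposited scale. All 27 members of the ribosome and translation list (32 listed) had positive differences, 18 were called higher in the germinating seedling and 0 in the 30DAP seed, and the median was 2.27. Their differences lay close together, so that after median ratio scaling 3 (11.1%, against 14.5% of all members) remained past the threshold, with a median of 1.13. RPS6 transcript Ca_TC00389 had 389 FPKM in the seedling and 90.6 in the seed (2.09, and 0.87 scaled). Ribosomal protein L27e Ca_TC00061 had 279 and 19.0 (3.80). A ribosomal protein of the L18ae family (Ca_TC00594) had 673 and 88.9 (2.91). The translation elongation factor EF1B gamma (Ca_TC00025) had 376 and 93.1. By keyword, 50 of 104 ribosomal transcripts were members, with 28 higher in the seedling, 0 in the seed and a median of 2.17. Of these 50, 47 had a positive difference. The 3 others, Ca_TC34212, Ca_TC35838 and Ca_TC35537, were low, with at most 0.007 FPKM in the seedling and 1.97, 1.31 and 0.63 in the seed, and 2 of them were called in the seed after median ratio scaling, where 9 were called in the seedling. The largest single difference was that of Ca_TC01917, of the L1p/L10e family, with 259 and 1.41 FPKM (6.75). Highest values elsewhere lay in growing tissues, with 728 in embryo for Ca_TC00389, 818 in root tip for Ca_TC00061 and 939 in root tip for Ca_TC01917.

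Gibberellin metabolism had few members and large differences. Of 10 listed transcripts 6 were members, 4 were higher in the germinating seedling and 0 in the 30DAP seed, and the median was 3.21 (2.58 after median ratio scaling). GA3, the ent-kaurene oxidase of the early pathway, had 22.1 FPKM in the seedling and 0.595 in the seed for Ca_TC01080 (3.86), and 63.9 and 7.04 for Ca_TC01081 (3.01), with 1425 bp shared by both loci. GA4, the gibberellin 3-oxidase 1 that makes the active hormone, had 10.1 and 0.045 FPKM for Ca_TC01202 (3.41), above all 29 other tissues, the next being root with 6.54. Another GA4 transcript, Ca_TC01203, had 1.82 and 0.095 (1.37, not called) and was higher in 6 other tissues, with 5.09 in sepal. Gibberellin 2-oxidase 2 (GA2OX2, Ca_TC00578), which inactivates the hormone, was also higher in the seedling, with 12.6 and 0.04 (3.70). KAO2 (Ca_TC00996), ent-kaurenoic acid hydroxylase 2, lay the other way, with 4.26 FPKM in the seedling and 18.8 in the seed, a difference of −1.92 that passed the threshold after median ratio scaling (−3.10). Both transcripts for gibberellin 20-oxidase 2, which acts just before GA4, stayed below the threshold in both tissues.

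Abscisic acid transcripts differed little between the tissues. Of 9 members 1 was higher in the germinating seedling, ABO5 (Ca_TC00956, 21.8 and 2.10 FPKM), which in Arabidopsis encodes a mitochondrial RNA splicing protein, and 0 were higher in the 30DAP seed. Their median of 0.66 was below that of all members, and became 0.07 under median ratio scaling and −0.73 under quantile normalization. The bZIP factor AREB3 (Ca_TC14173) was low in both, with 0.983 and 0.62, against 69.7 in embryo. Auxin and ethylene transcripts had 13 members, with 6 (46.2%, against 25.1% of all members) higher in the seedling and 0 in the seed, at a median of 1.67. The auxin response factor ARF6 (Ca_TC00546) had 156 and 12.1 FPKM (3.58), and an auxin-responsive family transcript (Ca_TC00799) had 37.5 and 1.06 (4.22). ERF1, ERF12 and ERF4, transcription factors of the ethylene response, had 5.94, 10.6 and 11.5 FPKM in the seedling and 0.335, 1.32 and 1.50 in the seed. Of the 6, 2 (15.4% of members, against 14.5%) stayed past the threshold after median ratio scaling.

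The cell division and microtubule list had 13 members, 4 of them (30.8%) higher in the seedling and 0 in the seed, a share near the 25.1% of all members. After median ratio scaling 2 (15.4%, against 14.5%) were called. Cyclin CYCA2;3 (Ca_TC01204) had 8.86 and 0.02 FPKM, and the spindle kinesin ATK1 (Ca_TC00255) 7.41 and 0.025. The cell cycle kinase CDKA;1 had 70.2 and 23.4 FPKM for its more abundant transcript, Ca_TC01003, a difference of 1.55 that was not called, and 9.41 and 0.71 for Ca_TC01002 (2.61). The cell wall list had 25 members, 12 of them (48.0%) higher in the seedling and 0 in the seed, at a median of 1.97, and 5 (20.0%, against 14.5%) passed after median ratio scaling. A pectin lyase-like transcript (Ca_TC01016) had 23.9 and 0.40 FPKM (4.15). The endoglucanase GH9A1 (Ca_TC00881), needed for cellulose synthesis, had 147 and 26.7 (2.42, and 1.22 scaled). Beta-xylosidase XYL4 had 43.3 and 5.70 for Ca_TC00145 (2.73) and 6.59 and 0 for Ca_TC00144. The 2 members on the cuticle list, below the threshold in both directions, had a median of 0.60, which became −0.15 after median ratio scaling. Of 6 root hair and epidermis members 1 was higher in the seedling, ETC3, and 0 in the seed (median 1.37, and 1.12 after median ratio scaling with the same counts), and of the 2 seed coat pigment transcripts none was called on either scale (median 1.02 and 0.52). Of the groups found by keyword, aquaporins had 9 members with 3 higher in the seedling and 1 in the seed on both scales. Tubulins had 4 with 1 and 0, and 0 and 0 after scaling. Heat shock proteins had 14 with 2 and 3 on both scales, starch and sugar enzymes 8 with 2 and 1, and 0 and 2 after scaling, and seed proteins 9 with 2 and 4, and 1 and 4 after scaling.

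Proteases were called in both directions. Of 13 members 7 (53.8%) were higher in the germinating seedling and 1 in the 30DAP seed, and after median ratio scaling 6 and 1. Aspartyl proteases Ca_TC00709 and Ca_TC00708 had 31.2 and 23.6 FPKM in the seedling against 0.015 and 0.06 in the seed, and their loci overlap by 1451 bp. Metacaspase 3 (Ca_TC00171) had 18.5 and 0.02 (4.26). The saposin-like aspartyl protease Ca_TC00740, of the phytepsin class found in seed vacuoles, was the 1 on the seed side, with 14.3 and 108 FPKM (−2.83), and reached 590 in endosperm. All 17 transcripts of carbohydrate and lipid mobilization were members, all 17 with a positive difference, and 4 (23.5%) were higher in the seedling and 0 in the seed, close to the 25.1% of all members. Their median was 1.11, and 0.47 with 3 called (17.6%, against 14.5%) after median ratio scaling. They included phosphofructokinase (Ca_TC00764, 101 and 2.19 FPKM, 5.00), which commits sugar to glycolysis, and GDSL lipases Ca_TC00450 (35.1 and 0.58) and Ca_TC00528 (17.6 and 0).

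Of 23 transporter members 7 (30.4%) were higher in the germinating seedling and 1 (4.35%) in the 30DAP seed, shares near the 25.1% and 2.49% of all members. The polyol/monosaccharide transporter Ca_TC21993 had 28.1 and 0.025 FPKM (4.83) and amino acid permease 3 (Ca_TC12788) 40.3 and 0.875 (4.46). The potassium channel AKT2/3 (Ca_TC00077) had 5.48 and 0.05, and the boron channel NIP6;1 (Ca_TC01101) 11.6 and 0.59. SAG29 (Ca_TC00119), a sugar transporter of the SWEET family that in Arabidopsis feeds the filling seed, had 1.70 FPKM in the seedling and 40.5 in the seed (−3.94), and 330 in seed coat. After median ratio scaling 6 were called higher in the seedling and 4 in the seed. The aquaporin Ca_TC01579, a PIP2 found by keyword, had 993 and 17.4 (5.76), against the opposite direction of Ca_TC32055. Among light signalling transcripts, 2 of 8 members were higher in the seedling and 1 in the seed, with the same counts after median ratio scaling. Both an NPH3 transcript (Ca_TC00191, 8.30 and 0.165) and LSH10 (Ca_TC00467, 10.4 and 0) were on the seedling side, and the NPH3 family transcript Ca_TC01195 was on the seed side (0.607 and 28.4, −4.19).

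Transcription factors were taken from the annotation and from lists of tissue-specific and module genes that were chosen on these samples, so the second source is not independent evidence of a direction. Neither source holds all transcription factors of chickpea, and the annotation used here named only a part of the assembled transcripts. The counts below therefore do not describe transcription factors as a whole. Of the 100 transcripts taken from the annotation, 83 were members. Of these members 20 (24.1%) were higher in the germinating seedling and 2 (2.41%) in the 30DAP seed, near the 25.1% and 2.49% of all members. Their median was 1.07. After median ratio scaling 12 and 3 were called. In the other lists 123 of 233 were members, with 57 (46.3%) and 7 and a median of 1.75, and 41 and 9 after scaling. Meristem and leaf polarity regulators of the homeobox family were in the seedling set, with STM (Ca_TC00756), which keeps shoot meristem cells undifferentiated, at 13.9 and 0.10 FPKM (3.76) and PHB (Ca_TC00936), which specifies the upper leaf side, at 11.7 and 0.17 (3.44). WRKY65 (Ca_TC00500) had 25.7 and 0.17 (4.51), WRKY6 (Ca_TC00741) 16.4 and 0.155 (3.92) and MYB102 (Ca_TC00293) 36.4 and 1.81 (3.73). ETC3 (Ca_TC00717), an inhibitor of trichome fate, had 12.9 FPKM and was listed at 0 in the seed.

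The CCAAT, HMG and MYB counts that follow come from the tissue-specific and module lists, which were chosen on these samples. Of all members of those lists, 46.3% were higher in the germinating seedling. CCAAT transcripts had 12 members with 10 higher in the germinating seedling and 1 in the 30DAP seed (median 3.52), and HMG transcripts 6 members with 5 and 0 (median 3.47). After median ratio scaling the counts were 8 and 1, and 4 and 0. The class named CCAAT also held a histone. Ca_TC01498, annotated as histone H2A 12, had 671 FPKM in the seedling and 30.5 in the seed (4.42), shared 13852 bp with Ca_TC01499 (484 and 68.5), and reached 2603 in endosperm. The largest CCAAT differences were those of Ca_TC08290 (93.8 and 0.40 FPKM, 6.08) and Ca_TC09722 (95.8 and 1.66, 5.19). The MYB transcripts of those lists had 12 members with 8 higher in the seedling and 0 in the seed on both scales. In the opposite direction, an AP2-EREBP transcript (Ca_TC05686) was listed at 0 in the seedling and had 44.6 FPKM in the seed and 74.7 in embryo. A zinc finger C3H transcript (Ca_TC01695) had 0.907 and 31.6 (−4.10), a CCAAT transcript (Ca_TC17374) 0.033 and 14.2 (−3.88), a MADS transcript (Ca_TC06576) 0.103 and 13.1 (−3.68) and a bZIP transcript (Ca_TC01924) 0.14 and 12.6 (−3.58). JAZ8 (Ca_TC00569), a repressor of jasmonate responses, had 0.137 and 4.92 (−2.38).

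Transcripts on chromosome 1 could also be divided into those of protein-coding genes (PCGs) and lncRNAs, long transcripts without coding potential. Of 1622 PCGs 1368 were members, and of 186 lncRNAs 75 were. Higher in the germinating seedling were 28.7% of the PCG and 24.0% of the lncRNA members, and higher in the 30DAP seed 2.70% (37) and 1.33% (1). The median FPKM of the members was 10.2 in the seedling and 2.72 in the seed for PCGs, and 4.11 and 0.26 for lncRNAs. A value of at least 0.5 was found for 73 lncRNAs in the seedling and 33 in the seed.

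The 2 sets differed in how they were placed among the other tissues. Of the 6227 transcripts higher in the germinating seedling, 5953 (95.6%) were higher still in at least 1 of the 29 other tissues with FPKM values, against 94.8% of all members. Of the 618 higher in the 30DAP seed this held for 224 (36.2%), and 40 were below 0.5 FPKM in all 29. The 29 leave out the 20DAP seed, the nearest stage to 30DAP, but include root, root tip and shoot. These shares therefore do not show how particular either set is to its tissue. Outside the compared pair, embryo was the highest tissue for 127 of the 618 (20.6%, against 6.45% of all members), seed coat for 52 (8.41% against 2.09%), androecium for 48 (7.77% against 5.42%), endosperm for 47 (7.61% against 7.89%) and nodule for 42 (6.80% against 0.95%). Of the seedling set, root hair was highest for 670 (10.8% against 7.18%), root for 551 (8.85% against 6.26%), embryo for 430 (6.91% against 6.45%), root tip for 393 (6.31% against 4.13%), pedicel for 351 (5.64% against 4.38%), endosperm for 344 (5.52% against 7.89%) and young leaf for 327 (5.25% against 4.48%), with fewer for each of the other tissues. The median of the 618 was 58.4 FPKM in the 30DAP seed, 1.18 in the germinating seedling and 2.80 in embryo. In the 20DAP seed 145 of the 618 (23.5%) were among the 1000 highest transcripts, against 293 (4.71%) of the seedling set and 4.01% of all members, and 42 were listed at 0. In total the seed set held 69.7% of the summed FPKM in the 30DAP seed and 0.996% in the germinating seedling, and the seedling set held 4.72% and 55.4%.

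**Figure D5:**
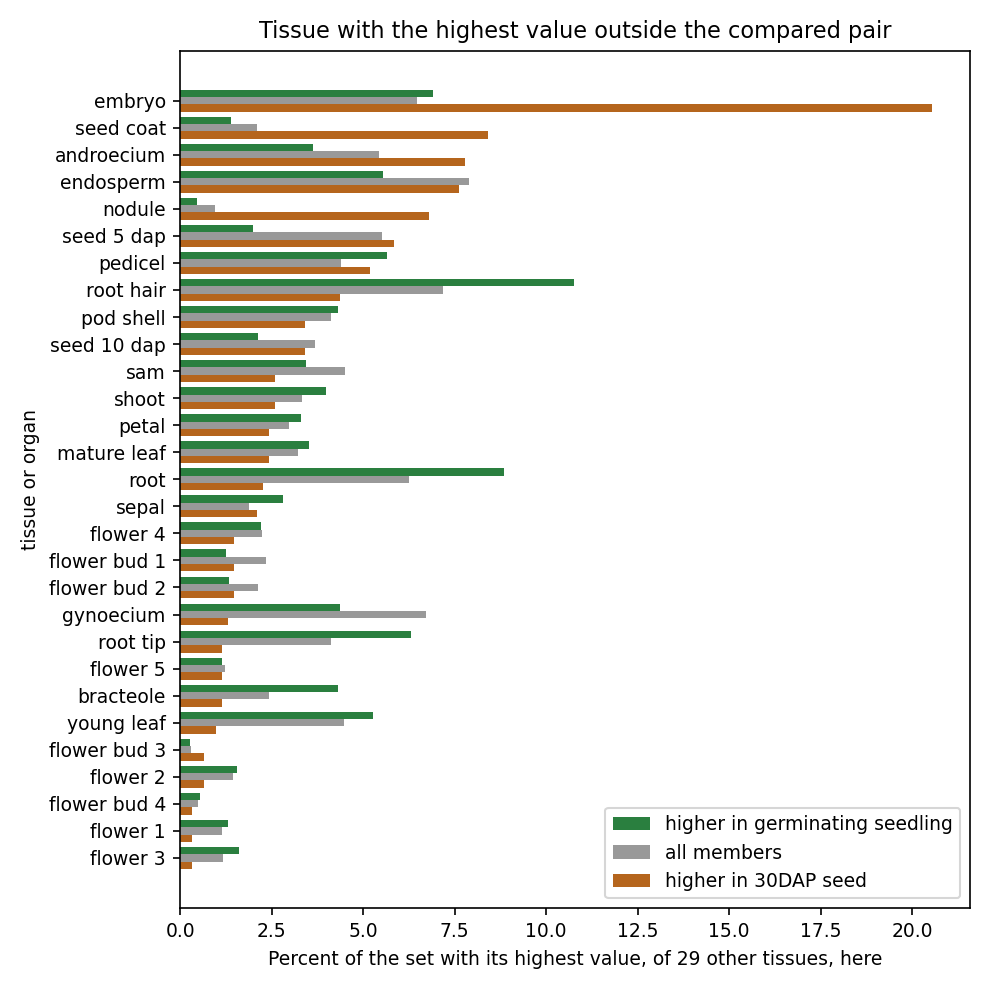
Percent (x axis, from 0) of the transcripts higher in the germinating seedling, of all members and of those higher in the 30DAP seed for which each of the 29 other tissues (y axis) had the highest value. Embryo stands at 20.6% for the 30DAP set, and root hair at 10.8% for the germinating seedling set.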

How the data were processed

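Per the study's methods, 100-nt paired-end Illumina reads were filtered (NGS QC Toolkit 2.3), aligned with bowtie2 2.3.4.1 to the study's own transcriptome assembly and quantified with RSEM 1.2.28. Whether strand was used is not given in the sources used here. The authors deposited 1 FPKM value per transcript and tissue, averaged over replicates. Under the same heading the authors deposited values for the 20DAP seed that sum and scale as estimated counts, so only ranks and zeros were used there. Depth per library is not in the deposited values, and no interval was computed for single values.

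FPKM values of both tissues were joined by transcript, and differences were taken with a pseudocount of 1, a threshold of 0.5 FPKM and a call at a size of 2 (Python 3.11.15, pandas 2.3.3, numpy 2.4.6, scipy 1.17.1). The calculation was tested on simulated data. No statistical test was possible on averages. Median ratio scaling, a common sum, quantile normalization, other pseudocounts and thresholds were tried. Annotation, types and positions (kabuli genome 1.0) came from the study's tables as names only. They named 3320 transcripts, 1751 of them members. Named transcripts were list members past a difference of 2 with at least 5 FPKM (up to 4 per list, and others needed to account for a list), the 12 annotated ones with the largest difference in each direction at 10 FPKM or more, the 2 unannotated ones with the largest difference and the 2 highest in each tissue, and transcription factors at 2 FPKM or more. Members and the 17 lists were chosen with earlier results of these data known, and 10 keyword lists were added from annotation wording later. The unaligned transcripts with high nodule values in the closing section, and Ca_TC31981, were singled out after their values were seen. No sequences were printed, since the reference used shares no transcript identifiers with the files.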

Additional observations from a re-analysis of the deposited data

How the results depend on the processing

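No paired analysis was possible because each tissue has a single averaged value, and leaving out a replicate could not be run for the same reason. The median difference of 1.16 had a binomial 95% interval over transcripts of 1.14 to 1.18. That interval treats transcripts as independent and holds no spread between replicates or between scales, so it is not an error of the comparison. The median was 0.95 and 1.28 with thresholds of 0.1 and 1 FPKM, 1.27 with both tissues at a common sum and 1.73 with a pseudocount of 0.1. It was 0.45 after median ratio scaling, 0.48 after scaling to the sum without the 100 highest transcripts and 1.09 over members with 0.5 FPKM or more in both tissues. It changed sign only under quantile normalization (−0.13). The counts of 6227 transcripts higher in the germinating seedling and 618 in the 30DAP seed became 10903 and 1037 with a pseudocount of 0.1, 3598 and 1305 with median ratio scaling, 2208 and 1453 with quantile normalization, and 3638 and 1264 without the 100 highest in the sum. At a size of 1 or 3 they were 13924 and 1254, or 2468 and 378, and 3617 and 361 among members with 0.5 FPKM or more in both. The common sum gave 7171 and 625. Without the transcripts listed as unaligned, a list that is incomplete, 6102 and 569 were counted. Both this setting and that of 0.5 FPKM in both were chosen after seeing the data. Of 417 transcripts followed, 76 fell below the threshold and 13 passed it under median ratio scaling, and none was called in the opposite direction.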

Other observations

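Some transcripts were abundant on both sides of germination. A value of at least 1000 FPKM in both tissues was found for 8 transcripts. Ca_TC14449 had 8627 FPKM in the germinating seedling and 8121 in the 30DAP seed, and 16857 in seed coat. The ubiquitin protein ligase UPL5 (Ca_TC00795) had 2036 and 1048, and 8693 in seed coat. The remaining 6 had no annotation in the tables used here. Ca_TC30556, Ca_TC29614 and Ca_TC04936 had 3989, 3489 and 3123 FPKM in the seed and 1396, 1339 and 1134 in the seedling.

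Among the highest transcripts of the germinating seedling, Ca_TC20882 had 19193 FPKM there, 620 in the 30DAP seed and 18425 in pedicel, and Ca_TC21042 had 11741 and 787, with 33627 in root. The unannotated transcripts with the largest difference towards the seedling were Ca_TC31842 (2082 and 0.11 FPKM, 10.87) and Ca_TC02191 (1887 and 0.085, 10.77), and both had root tip as their highest other tissue, with 1672 and 2909 FPKM. Of the 100 highest transcripts in each tissue 12 were shared.

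Among unaligned transcripts singled out after their values were seen, Ca_TC33881 had 93.8 FPKM in the 30DAP seed and 9382 in nodule, Ca_TC32042 413 and 5650, and Ca_TC31933 12.3 and 7062, and all 3 were listed at 0 in the germinating seedling and in the 20DAP seed.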
